A study of Mus musculus with 75 samples.

Results

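The genes described here encode the protein components of the cytosolic ribosome of the mouse. They were taken by symbol, as the protein-coding genes in both deposited count tables named Rpl or Rps followed by a number, together with Rplp0, Rplp1, Rplp2 and Rpsa; ribosomal protein kinases (Rps6k) and symbols with -ps were left out. The rule found 86 genes among the 40254 annotated genes of the tables, 52 for the large subunit and 34 for the small subunit. The small-subunit group includes Rps19bp1, a protein that binds Rps19 and is not itself a ribosomal protein. The genes lie on 19 chromosomes, with 14 on chromosome 7 and 4 on X.

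RNA was sequenced from blood progenitor populations sorted from 8-week-old mice in which the chromatin regulator Kmt2c, a histone H3 lysine 4 methyltransferase, was conditionally deleted. Experiment 1 held 48 libraries of untreated cells labelled HSC (the usual abbreviation of haematopoietic stem cell), HPC, pGM (pre-granulocyte-monocyte) and GMP, with 4 libraries for each population of wild type (wt), of Kmt2c f/+; Vav-Cre (het) and of Kmt2c f/f; Vav-Cre (ko), with f for the floxed allele and with Cre recombinase driven in blood cells by the Vav promoter. Experiment 2 held 27 libraries, again of HSC and HPC but of the wt and ko genotypes alone, after 3 days of PBS or of the cytokine interleukin 1 (IL-1) at 0.5 µg a mouse, with 4 libraries in each HSC group, except 3 for wt HSC with IL-1, and 3 in each HPC group. No Vav-Cre is given in the labels of wt, so the loss of Kmt2c and the presence of Cre cannot be told apart against wt, while het and ko both carry Cre. The labels do not say which libraries come from separate mice, so the p-values speak of spread among libraries, some of which may be technical.

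Each ribosome carries nearly every one of these proteins once, so their genes are transcribed together and rank among the most highly expressed genes of a dividing cell. Their messenger RNAs are of the TOP class: they start with a cytosine followed by a run of pyrimidines (a 5′ terminal oligopyrimidine tract), through which the growth-sensing kinase mTOR and the protein Larp1 control their translation. Haematopoietic stem cells are known for a low rate of protein synthesis compared with the progenitors they give rise to. Blood formation is sensitive to ribosome number: mutation of 1 copy of RPS19 and of several other ribosomal protein genes causes Diamond-Blackfan anaemia in humans, and loss of 1 copy of RPS14 contributes to the anaemia of the 5q deletion syndrome.

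The shared sequence feature can be read at the start sites. RefSeq promoters (build GRCm38.p6) were matched to 66 of the 86 genes. The following windows run from 10 bases before the annotated start to its 20th base, on the strand of the gene, with the pyrimidine run that opens at the start base in capitals. The genes shown are 9 of those with such a run exactly at the annotated start that also rose in a comparison of wt populations.
Rpl14, chr9:120571507-120571536, + strand: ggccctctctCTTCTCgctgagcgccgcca
Rpl28, chr7:4792955-4792984, + strand: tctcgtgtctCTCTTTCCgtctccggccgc
Rpl35, chr2:39005112-39005141, - strand: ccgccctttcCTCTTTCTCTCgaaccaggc
Rpl35a, chr16:33056472-33056501, + strand: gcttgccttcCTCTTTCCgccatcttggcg
Rpl38, chr11:114668570-114668599, + strand: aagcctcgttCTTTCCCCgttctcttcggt
Rplp2, chr7:141447641-141447670, + strand: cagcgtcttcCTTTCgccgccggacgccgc
Rps10, chr17:27635225-27635254, - strand: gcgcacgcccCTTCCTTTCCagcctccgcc
Rps18, chr17:33955646-33955675, - strand: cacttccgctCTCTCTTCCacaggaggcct
Rps21, chr2:180257369-180257398, + strand: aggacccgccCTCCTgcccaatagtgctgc

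A cytosine with at least 4 pyrimidines after it stood at the annotated start of 14 of the 66 genes (21.2%) and of 3.01% of all 27025 RefSeq genes with a promoter of the same length. A cytosine with 7 pyrimidines after it, anywhere from 10 bases before to 15 bases after the start, was found in 34.8% of the 66 genes and in 8.53% of all genes. Over the 300 bases of each promoter, CCGGAAG on either strand, the core bound by ETS factors such as GABP, stood in 39.4% of the 66 genes and in 9.93% of all genes. AAGATGG on either strand stood in 15.2% against 7.28%, and CTTTCC on the gene strand, which overlaps the pyrimidine runs, in 40.9% against 16.0%. TATAAA on the gene strand stood in 9.09% against 9.77%, and CACGTG on either strand, the E-box that Myc proteins bind, in 9.09% against 8.09%. These are matches of letters in a window and say nothing on which factor was bound in these cells.

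Libraries held 13273928 to 20814531 counted reads in experiment 1 and 18649343 to 42826325 in experiment 2. Kmt2c itself, the check of the labels, was at 47.2 to 71.0 CPM (reads of the gene per 1000000 counted reads) in wt HSC, 37.7 to 45.1 in het HSC and 15.2 to 21.9 in ko HSC of experiment 1. In experiment 2 wt HSC with IL-1 it was at 39.7 in the highest library and at 14.5 in the library labelled wt IL-1 replicate 1, which lies in the range of the ko libraries, 12.3 to 28.5; medians of the family that rest on that group, and the fitted values of 2 genes, are given with and without it. The wt populations of experiment 1 differed in the summed CPM of their marker lists: 1080 to 1350 in HSC against 12.3 to 16.0 in GMP for 5 stem cell markers, and 109000 to 128000 in GMP against 1080 to 2780 in HSC for 5 granule and myeloid markers. Lists of other cells also varied within a group. The sum of 5 neutrophil markers was 19.7 to 3160 in wt HSC, 20.4 to 738 in HPC, 27.6 to 745 in pGM and 168 to 796 in GMP. In wt HSC 5 erythroid markers summed to 48.3 to 507, and 4 B cell markers to 130 to 172. The part of such RNA in the values of experiment 1 was not tested. The experiment 2 libraries called HSC by title have HPCs as their cell type entry and were grouped as HSC.

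The 86 genes took 3.94% to 7.37% of the reads of a library in experiment 1 and 11.18% to 21.17% in experiment 2. In experiment 1 the wt means were 4.90% ± 0.199 in HSC, 6.08% ± 0.837 in HPC, 5.42% ± 0.417 in pGM and 4.47% ± 0.549 in GMP (SD, n = 4 each). The order of the genes also differed: Rps3, Rpl32, Rpl8 and Rps9 were among the 5 that took most reads in experiment 1, and Rpl3, Rplp0, Rpsa and Rpl32 among the 5 in experiment 2. The plot of read shares by library shows both scales.

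**Figure D1:**
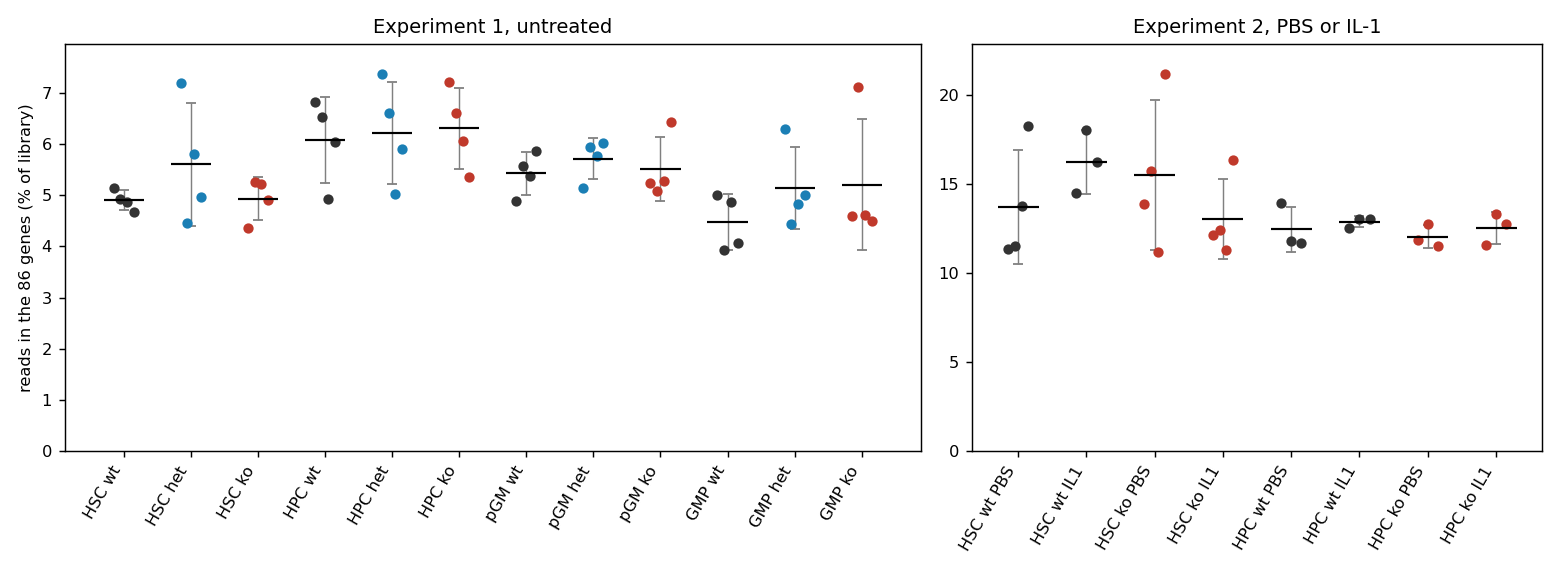
Percent of counted reads in the 86 genes (vertical axis, from 0) in each library, by group, for experiment 1 (left) and experiment 2 (right). Points are libraries (wt black, het blue, ko red), black lines are group means and grey bars are SD; all libraries of experiment 1 lie between 3.94% and 7.37% and all of experiment 2 between 11.18% and 21.17%.

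The difference between the experiments fell on particular genes. Many ribosomal protein genes have processed pseudogenes, copies of the messenger RNA elsewhere in the genome, and 75 of the 86 had at least 1 other transcript of at least 97% identity over at least 100 bases in the annotation. The other 11 included Rpl41, Rpl32, Rps14, Rps27l, Rps21, Rpl4 and Rpl22. In untreated wt HSC of experiment 1 set beside PBS-treated wt HSC of experiment 2 (CPM by library total plus 0.5, no test, since the tables differ in mice, treatment and depth), the median log2 ratio was -0.13 over the 11 genes with 0 copies. It was -1.59 over the 29 genes with 1 to 2 copies, -3.66 over the 26 with 3 to 5, and -5.83 over the 20 with 6 or more.

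Rpl4, a large-subunit protein with 0 copies that lines the exit tunnel, was at 2802 ± 156 CPM in experiment 1 and 3063 ± 289 in experiment 2 (SD, n = 4 each). Rpl22 was at 599 ± 31.8 and 519 ± 92.8 CPM. Rps27, a zinc-finger protein of the small subunit with only 1 copy, was at 1.75 ± 0.872 and 1416 ± 464 CPM. The log2 ratios of the genes with 1 to 2 copies ran from -9.30 to 0.465, so the number of copies alone does not give the ratio of a gene. Rpl4 and Rpl22 thus had levels of the same order in both tables, while Rps27 did not. Rps29, Rps13 and Rpl5 were likewise between 1.42 and 2.37 CPM in experiment 1 and between 1085 and 1279 CPM in experiment 2. In experiment 1, 12 of the 86 genes were under 5 CPM, in experiment 2 4 were. Reads on 369 annotated ribosomal protein pseudogenes were also fewer in experiment 1, at 0.0307% to 0.0809% of a library, than in experiment 2, at 0.810% to 1.64%. The sources used here do not say how reads with several matches were counted, and the part of that step in these levels was not tested. Levels are therefore compared only within an experiment below, and a gene with copies may carry reads of its copies.

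**Figure D2:**
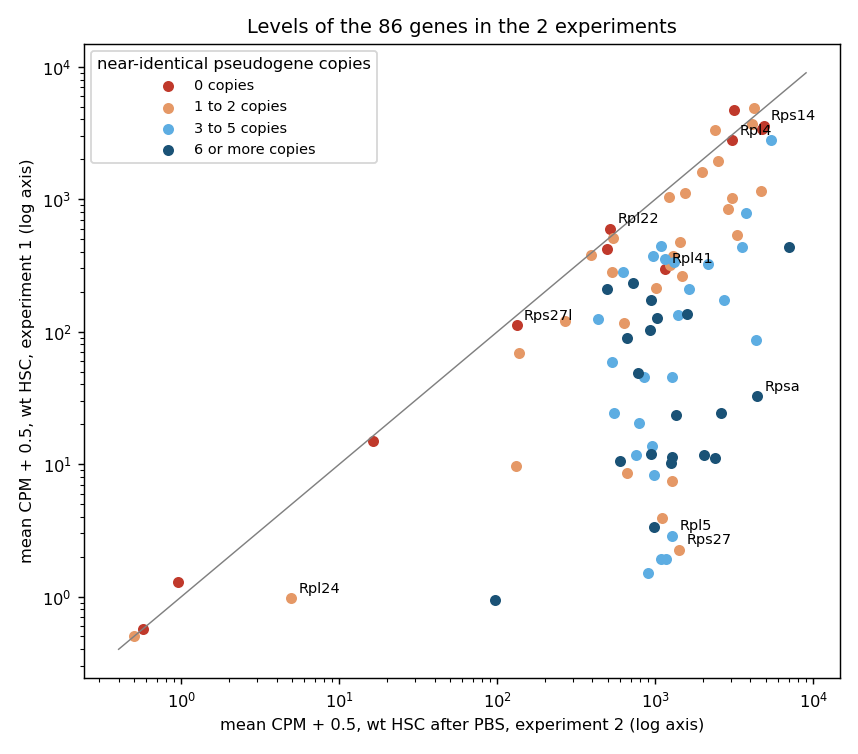
Mean CPM + 0.5 of each of the 86 genes in wt HSC of experiment 1 (vertical, log axis) against wt HSC given PBS in experiment 2 (horizontal, log axis), coloured by the number of near-identical copies; the grey line marks equal values. Genes with 0 copies such as Rpl4, Rps14 and Rpl22 lie near the line. Rps27, with 1 copy, lies far below it at 1.75 against 1416 CPM. All genes with 3 to 5 or with 6 or more copies lie below the line, at differing distances.

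Per kilobase of exon, Rps14 (4568 CPM per kb) and Rps9 (4075) were among the 3 highest genes in untreated wt HSC. The 3 lowest were the testis-enriched Rpl10l (0), the muscle-enriched Rpl3l (0.0473) and Rpl24 (0.696). Rpl10l had 8 reads over all 48 libraries of experiment 1 and 2 reads over the 27 of experiment 2, and a count of 0 in 1 library allows up to 0.144 to 0.226 CPM in experiment 1, by 3 counts and for counting error only. Rpl10l was below the minimum for testing throughout. Rpl3l, Rpl39l, Rpl23a and Rpl24 were below it in some of the 8 fits, which leaves 81 to 85 of the 86 genes tested. Rpl24 shares 47.0% and Rpl23a 62.3% of its exonic bases with other annotated genes.

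Among untreated wt cells, ribosomal protein genes were lowest in HSC relative to the rest of the transcriptome, although on library totals alone those of GMP were not above HSC. On the TMM scale 26 of the 85 tested genes rose in HPC over HSC, 29 in pGM and 40 in GMP, and 0 fell in any of these comparisons (edgeR quasi-likelihood test, adjusted p under 0.05). The corresponding background, the share of all 15110 tested genes called higher, was 12.5%, 20.7% and 27.5%, beside which the shares of ribosomal protein genes were 30.6%, 34.1% and 47.1%. In HPC and pGM the shares of ribosomal protein genes depended on the fit: they were 10.6% and 22.4% with RLE scaling and 12.9% and 22.4% with DESeq2. In GMP they were 38.8% and 42.4%. The share of all genes called higher in those fits was not computed, so an excess over it is not known there. In either direction, 3310 of the 15110 genes were called in HPC with RLE scaling and 3501 with DESeq2. In pGM these counts were 6214 and 6321. No ribosomal protein gene was called lower in these fits. With RLE scaling the medians of the 85 genes were 0.34 in HPC and 0.32 in pGM, where those of all genes were -0.08 and -0.12. On the TMM scale the share of all genes called lower was 10.2%, 20.7% and 33.7%. On that scale the median log2 fold change of the 85 genes was 0.40, 0.41 and 0.49, where that of all genes was -0.02, -0.02 and -0.16. The 3 comparisons share the 4 HSC libraries and are not independent. HSC had the lowest TMM-scaled wt mean of the 4 populations for 64 of the 85 genes. Short protein-coding genes outside the family (exons under 1500 bases, 856 tested) had medians of 0.28, 0.28 and 0.37 in the same comparisons. Of these short genes, 31.0%, 46.8% and 65.9% were called in either direction, where 3440, 6252 and 9250 of all 15110 genes were. These shares count both directions, unlike the shares called higher above.

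TMM is a scale that lets the bulk of genes stand still, and the direction in GMP against HSC depends on it. On library totals alone, which let the granule genes of GMP take their share of the reads, the median of the 85 genes was 0.22 higher in HPC, 0.12 higher in pGM and -0.14 in GMP against HSC, and 33 of the 85 genes had a positive value in GMP. In these bulk samples fewer cells of a type and less RNA per cell cannot be told apart. The shift between both scales is the same for every gene in a library, so it leaves the distance of a gene from the median of all genes as it was.

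Rps27a, Rps27l, Rpl27 and Rpl36al were among the 5 genes that rose most in GMP over HSC, and 2 of these are paralogs of other ribosomal protein genes. Rps27l (chr9:66946086-66949516, + strand, GRCm38), a paralog of Rps27 that is a target of p53 and has 0 near-identical copies, was at 110, 87.6, 90.9 and 83.2 TMM-scaled CPM in the wt HSC libraries. It was at 224, 194, 123 and 184 in HPC, at 222, 241, 280 and 288 in pGM, and at 450, 288, 449 and 307 in GMP. Every HPC, pGM and GMP library lay above every HSC library, and the log2 fold change over HSC was 0.96 ± 0.25 in HPC (SE, edgeR adjusted p = 0.00361), 1.47 ± 0.25 in pGM (edgeR adjusted p = 7.76e-06) and 2.01 ± 0.26 in GMP (edgeR adjusted p = 6.89e-09). Rpl36al, an autosomal paralog of the X-linked Rpl36a, was at 63.6, 56.2, 59.1 and 50.2 CPM in HSC and at 196, 152, 208 and 157 in GMP. Its groups did not overlap, with a log2 fold change of 1.64 ± 0.20 (edgeR adjusted p = 1.56e-09). Rpl36a itself was at 5.35 to 7.88 CPM in HSC and 8.82 to 13.1 in GMP, a change of 0.61 ± 0.23 (edgeR adjusted p = 0.0206).

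Rpl27 of the large subunit was at 16.1, 13.9, 17.5 and 19.6 CPM in HSC and at 66.8, 50.0, 75.1 and 52.3 in GMP. Rps27a, which is made as a fusion with ubiquitin, was at 8.05 to 10.6 CPM in HSC, 10.8 to 22.5 in HPC, 18.8 to 28.7 in pGM and 36.8 to 41.8 in GMP. Both rose from HSC to GMP without overlap, Rpl27 by 1.86 ± 0.20 and Rps27a by 2.12 ± 0.34 on the log2 scale. Both have near-identical copies and stood at low levels for ribosomal protein genes in this experiment. In experiment 2 Rpl27 was at 763 ± 208 CPM in wt PBS HSC (SD, n = 4).

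The 5 that rose most in HPC over HSC were Rps27l, Rpsa, Rps24, Rpl35 and Rpl41, and Rps27l, Rps27a, Rpl41 and Rpl27 were among the 5 in pGM over HSC. Of the 11 genes with 0 copies, 6 rose in HPC, 5 in pGM and 6 in GMP. The large and small subunits gave like shares, 16 of 51 and 10 of 34 in HPC, 17 and 12 in pGM, and 25 and 15 in GMP. Beside these counts, 12.5%, 20.7% and 27.5% of all tested genes rose in HPC, pGM and GMP over HSC. Rpl4 was at 2138 to 2615 CPM in HSC, 2402 to 3462 in HPC, 3168 to 3723 in pGM and 4216 to 4612 in GMP. It rose in GMP over HSC by 0.90 ± 0.14 (edgeR adjusted p = 3.72e-07) and over HPC by 0.53 ± 0.14 (edgeR adjusted p = 0.00151). Rpl41, the smallest of these proteins, was at 221 to 275 CPM in HSC and 511 to 650 in GMP, a rise of 1.23 ± 0.22.

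The stalk proteins Rplp0, Rplp1 and Rplp2 recruit translation factors to the large subunit. Rplp0 was at 2192, 2613, 2465 and 2086 CPM in HSC, at 3573, 3643, 2667 and 2999 in HPC, at 2992, 3350, 3261 and 3648 in pGM, and at 4127, 3754, 4534 and 3675 in GMP. It rose over HSC in each, by 0.46 ± 0.13, 0.50 ± 0.13 and 0.78 ± 0.13, and no library of the other populations fell within the HSC range. Rplp1 and Rplp2 rose in HPC (0.56 ± 0.16 and 0.44 ± 0.15) and in GMP (0.56 ± 0.16 and 0.65 ± 0.15), and did not pass the test in pGM. Rpsa, the laminin receptor and small-subunit platform protein, rose in HPC (0.85 ± 0.31, edgeR adjusted p = 0.0371) and pGM (0.74 ± 0.31, edgeR adjusted p = 0.0475), with libraries from 20.8 to 40.7 CPM in HSC and 33.5 to 69.7 in HPC. Its HSC and HPC libraries overlapped.

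**Figure D3:**
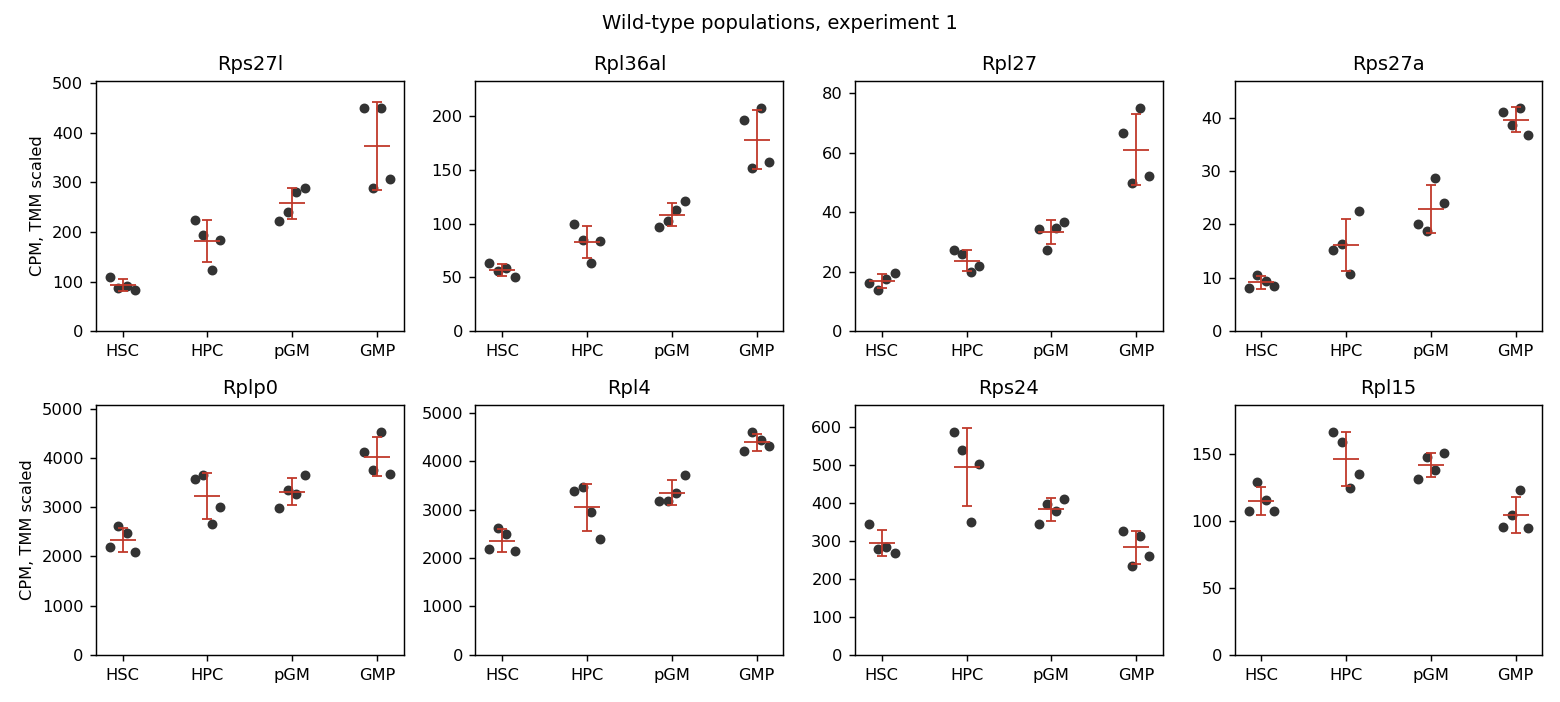
TMM-scaled CPM (vertical axes, from 0) of 8 genes in the wt libraries of experiment 1, by population. Black points are libraries, red dashes and bars are mean and SD (n = 4); Rps27l, Rpl36al, Rpl27 and Rps27a have their highest means in GMP, and Rps24 and Rpl15 have theirs in HPC.

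Past the step from HSC to HPC the family changed little as a whole and individual genes parted. In pGM against HPC, 1 of 85 genes was called higher and 0 lower, where 5.59% and 6.36% of all genes were. In GMP against pGM 7 rose and 2 fell, where 11.0% of all genes rose and 18.0% fell, and in GMP against HPC 20 rose and 3 fell, where 21.0% rose and 27.0% fell. The medians of the 85 genes in these comparisons were -0.02, 0.04 and 0.00, and each took both signs over the refits that left out 1 library. Rps24 and Rpl15 were among those that fell from HPC to GMP. Rps24, one of the Diamond-Blackfan genes, was at 344, 280, 283 and 269 CPM in HSC, at 588, 539, 349 and 501 in HPC, at 343, 398, 379 and 410 in pGM, and at 326, 235, 313 and 259 in GMP. Its HPC libraries lay above all those of HSC and GMP, with changes of 0.75 ± 0.24 from HSC to HPC (edgeR adjusted p = 0.0167) and of -0.80 ± 0.24 from HPC to GMP (edgeR adjusted p = 0.00452). Rpl15 of the large subunit fell from HPC to GMP by 0.49 ± 0.15 (edgeR adjusted p = 0.00612), from 124 to 166 CPM to 94.6 to 123 CPM.

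Of 11 genes tied to Diamond-Blackfan anaemia or the 5q deletion, 3 rose in HPC over HSC (Rps14 by 0.52 ± 0.19, Rps24 and Rps26), where 12.5% of all genes did, and 5 rose in GMP over HSC (Rps10, Rps26, Rpl5 and Rpl35a among them), where 27.5% did. Rps26, which contacts the mRNA at the exit channel, was at 348 to 394 CPM in HSC and 484 to 662 in GMP, a rise of 0.62 ± 0.14 (edgeR adjusted p = 0.000225). Rps19, the gene most often mutated in the disease, was at 629 to 693 CPM in HSC, 689 to 1082 in HPC, 836 to 1124 in pGM and 716 to 880 in GMP, and was called in pGM only (0.48 ± 0.20, edgeR adjusted p = 0.0433). Rps14 was at 2729 to 3257 CPM in HSC and 3050 to 4921 in HPC, which overlap. Rpl11, which with Rpl5 binds the p53 regulator Mdm2 when ribosome assembly fails, was at 5.403 to 8.511 CPM across the 16 wt libraries and was called in none of the 6 comparisons of wt populations.

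Among the variants, Rpl22l1, the paralog of Rpl22, was at 79.5 to 120 CPM in HSC, 104 to 184 in HPC, 105 to 134 in pGM and 86.9 to 135 in GMP, with no call in any of the 6 wt comparisons. Rpl22 was at 473 to 527 CPM in HSC and 496 to 651 in GMP. Rpl7l1, a paralog of Rpl7, rose in GMP over HSC by 0.70 ± 0.15 (edgeR adjusted p = 0.000104). Rps19bp1 rose by 0.75 ± 0.31 (edgeR adjusted p = 0.0376). The X-linked Rpl10 was at 6.91 to 10.2 CPM in HSC and at 16.6, 30.4, 36.2 and 13.3 in GMP, a rise of 1.57 ± 0.33 (edgeR adjusted p = 8.13e-05) with a wide spread among the GMP libraries. Rpl10 has 7 near-identical copies. Its mean in wt IL-1 HPC of experiment 2 was 1358.7 CPM, a value of other cells, treatment and scaling that is not compared with those above. Rpl39l was between 0.08 and 1.41 CPM in every wt library.

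Other gene groups of protein synthesis were counted in the same comparisons, in which 12.5%, 20.7% and 27.5% of all genes rose in HPC, pGM and GMP over HSC. Of 76 tested mitochondrial ribosomal protein genes, which serve the separate ribosome of mitochondria, 35 rose and 1 fell in HPC over HSC, 56 rose and 0 fell in pGM, and 65 rose and 2 fell in GMP, where their median was 1.03. Of 35 ribosome biogenesis genes, the factors that process ribosomal RNA and assemble the subunits, 6 rose in HPC, a share near the background, 25 in pGM and 27 in GMP, and 0 fell. From HPC to pGM, where 1 cytosolic ribosomal protein gene rose, 15 of these 35 rose and 0 fell. Of 25 other TOP genes, such as elongation factors, 6 rose and 1 fell in HPC, 11 and 1 in pGM, and 13 and 2 in GMP.

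The HPC count rests on few libraries. Without HPC wt replicate 1 or without HSC wt replicate 4 it was 3 in place of 26 (3.53% of the 85 genes), and without HPC wt replicate 2 it was 6. Without HPC wt replicate 3, which was the lowest HPC library for 66 of the 85 genes, it was 38. The share of all genes called higher in these refits was not computed. Leaving out HSC wt replicates 1, 2 or 3 or HPC wt replicate 4 gave 16, 17, 14 and 17, while the median stayed between 0.33 and 0.49. With DESeq2 it was 11 and with limma voom 47. The pGM count over HSC was 18 without HSC wt replicate 4 and 19 without pGM wt replicate 4, and the GMP count over HSC stayed between 31 and 39 in every such refit. In GMP against pGM 5 genes in place of 9 were called without pGM wt replicate 1.

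Experiment 2 allows 1 of these comparisons again, HPC against HSC in wt mice given PBS. There no gene of the family was called unless replicate number was fitted as a block. None of 85 tested genes was called by edgeR (0 at an unadjusted p under 0.05, 0 by DESeq2 and by limma voom), where 13.8% of all 17511 genes were called, and the median was -0.10 with 22 of 85 positive. Rps27l was at 126, 104, 119 and 165 CPM in HSC and at 229, 197 and 122 in HPC, groups that overlap, with a difference of 0.51 ± 0.31 (edgeR adjusted p = 0.322). The HSC libraries of experiment 2 were uneven in these genes: replicate 4 of wt PBS had 18.25% of its reads in the family where the other 3 had 11.37% to 13.74%. Without it the median was 0.13, with 0 calls. With replicate number as a block 6 genes were called, all higher, where 2799 of all 17511 genes were called in either direction. The median with the block was 0.14. The difference between the 2 experiments in this contrast was not tested.

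In experiment 1 no gene of the family was called by edgeR between Kmt2c genotypes within a population. In the 12 comparisons of ko, het and wt within a population of experiment 1, 0 of the 81 or 82 tested genes passed edgeR's test, with 0 to 7 genes at an unadjusted p under 0.05 and medians from -0.21 to 0.21. The share of all genes called was 1.78% in HSC, 1.1% in HPC, 1.94% in pGM and 0.555% in GMP for ko against wt. It was 0.00724%, 0.00753%, 0.0155% and 0.00828% for het against wt, and 0.326%, 0.196%, 0.564% and 0.0166% for ko against het. DESeq2 gave 1 call in these 12 comparisons, in pGM ko against wt, and limma voom gave 0. The background is low in each, so a count of 0 was also near it.

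The median ko against wt change was -0.01 in HSC, 0.04 in HPC, 0.03 in pGM and 0.13 in GMP, and none of the 4 kept its sign over the libraries left out in turn. It lay between -0.05 and 0.05 in HSC, went to -0.05 in HPC without ko replicate 1 and to -0.09 in pGM without ko replicate 4. Rps19 was at 884 ± 127 CPM in ko HSC and 788 ± 27.3 in wt HSC, a difference of 0.17 ± 0.16 (SD and SE, n = 4 each, edgeR adjusted p = 0.775). Rps14 was at 3650 ± 467 and 3567 ± 230 CPM, and Rplp0 at 2825 ± 187 and 2766 ± 231. Rps27l was at 134 ± 14.3 CPM in ko HSC and 110 ± 14.5 in wt HSC, a difference of 0.28 ± 0.16 (edgeR adjusted p = 0.593). Each of these 4 genes differed between the genotypes by less than the test could separate from the spread of libraries. In GMP the median of 0.13 turned to -0.11 without ko replicate 2, in which the family took 7.12% of reads where the other 3 ko libraries had 4.50% to 4.61%. The het against wt median of 0.21 in HSC went to 0.05 without het replicate 1 (7.19% of reads in the family, 3.67% mitochondrially encoded), and that of 0.16 in GMP went to 0.06 without het replicate 1.

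The ko against wt change was also compared between populations. Of 85 tested genes 0 were called for HPC minus HSC, 1 for pGM minus HSC and 0 for GMP minus HSC by edgeR, where 0.232%, 0.218% and 0.390% of all genes were called. The medians of the 85 differences were 0.04, -0.01 and 0.15. The first went to -0.09 without HPC wt replicate 3 and the last to -0.14 without GMP ko replicate 2, and that for pGM lay between -0.10 without pGM ko replicate 4 and 0.06 without HSC ko replicate 2.

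**Figure D4:**
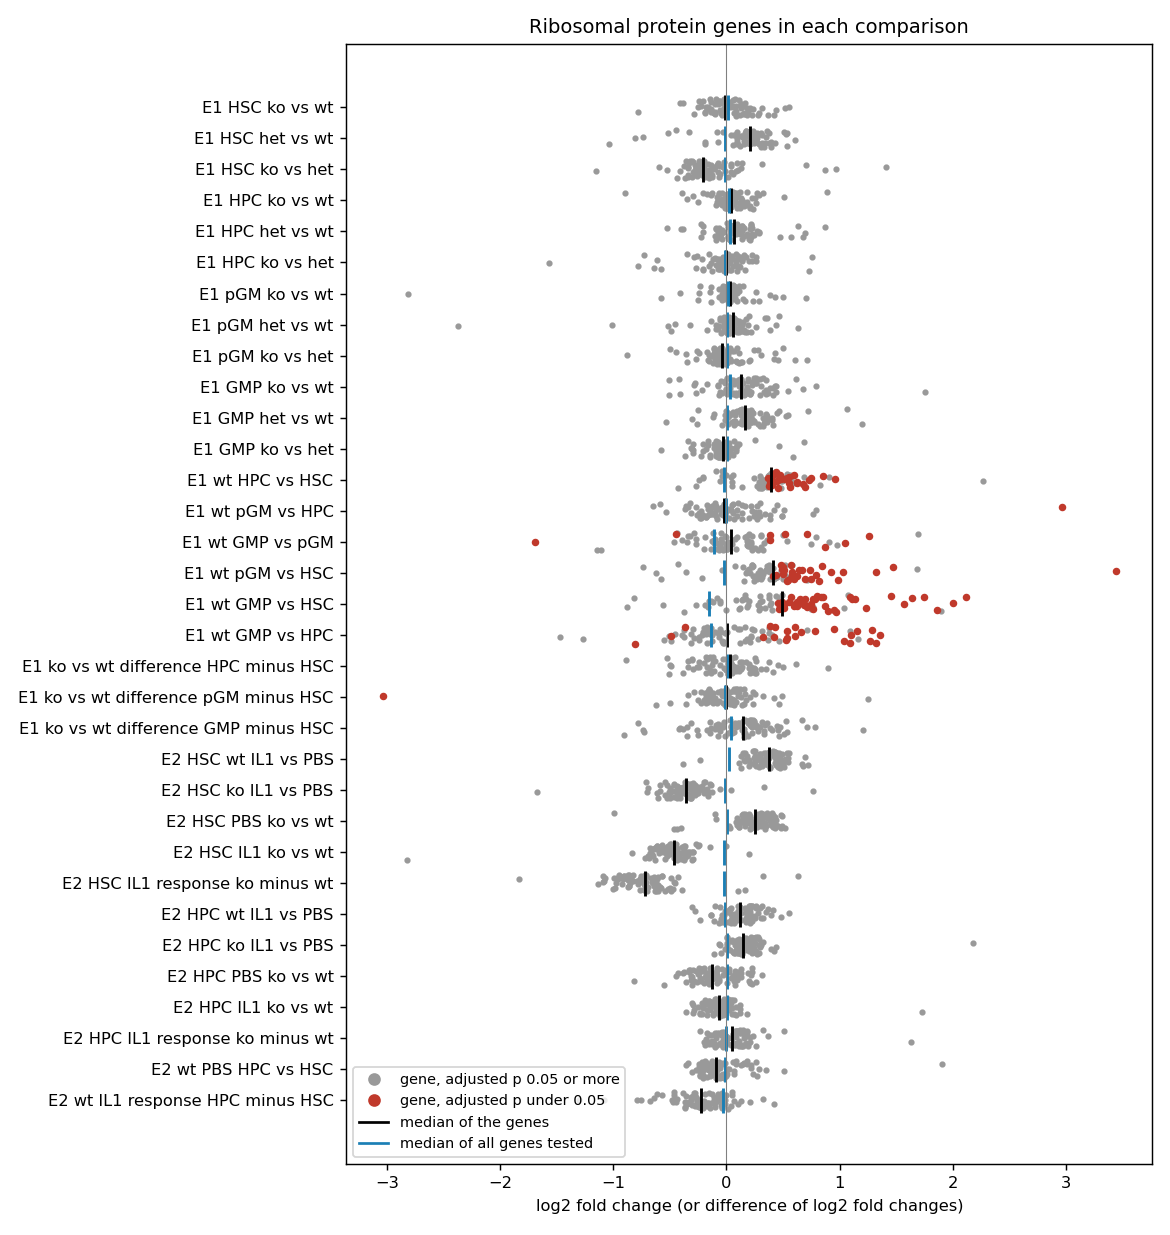
Log2 fold change (horizontal axis; for differences of responses, the difference of log2 fold changes) of each tested ribosomal protein gene in the 33 comparisons, E1 and E2 being experiments 1 and 2. Red points are genes at adjusted p under 0.05 and grey points the others; black and blue ticks are the medians of these genes and of all tested genes, which part in the wt population comparisons with HSC (0.40 against -0.02 in HPC, on the TMM scale) and in HSC of experiment 2.

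IL-1 gave no call among these genes in HSC unless replicate number was fitted as a block. In wt HSC 0 of 84 genes were called where 0.200% of all 16538 genes were, in ko HSC 0 where 0.212% were, and 0 genes were called by DESeq2 and by limma voom in either. The whole family leaned in opposite directions: 82 of 84 values were positive in wt, with a median of 0.38, and 81 of 84 were negative in ko, with a median of -0.36. At an unadjusted p under 0.05 there were 0 genes in wt and 5 in ko. Genes of 1 family are measured in the same libraries, so 84 values of 1 sign are not 84 observations. The difference of the responses, ko minus wt, had a median of -0.72 with 80 of 84 negative and 0 calls (10 at an unadjusted p under 0.05, 0% of all genes called). With replicate number as a block 5 of 84 genes were called in wt, all higher, where 167 of all 16538 genes were called in either direction. The block gave 0 calls in ko and for the difference. Its medians were 0.63 in wt, -0.29 in ko and -0.94 for the difference.

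Rps14 was at 3710, 3227, 4771 and 7675 CPM in wt PBS HSC and at 4742, 7289 and 6982 in wt IL-1 HSC. It was at 5264, 6480, 3511 and 10201 CPM in ko PBS HSC and at 4025, 3492, 3020 and 6451 in ko IL-1 HSC. Replicate 4 was the highest of its group in wt PBS, ko PBS and ko IL-1, and the PBS and IL-1 libraries overlapped in both genotypes. The log2 change was 0.39 ± 0.36 in wt and -0.58 ± 0.34 in ko (edgeR adjusted p = 0.853 and 0.629), and their difference -0.97 ± 0.50 (edgeR adjusted p = 0.847). Rpl11 also had its highest library in replicate 4 of ko PBS, and was at 685, 787, 947 and 1482 CPM in wt PBS, 972, 1248 and 1098 in wt IL-1, 825, 905, 676 and 1796 in ko PBS, and 759, 760, 679 and 1071 in ko IL-1. Rps21, a small-subunit protein with 0 copies, had the values 0.43 ± 0.36 in wt, -0.71 ± 0.33 in ko and -1.13 ± 0.49 for the difference (edgeR adjusted p = 0.837, 0.565 and 0.847). Without the library labelled wt IL-1 replicate 1 the wt change was 0.55 for Rps14 and 0.61 for Rps21, and the difference -1.14 and -1.31, with no call.

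The size of these medians moved with single libraries and with the mitochondrial share. The family took 11.37%, 11.50%, 13.74% and 18.25% of reads in wt PBS HSC, 14.47%, 18.04% and 16.22% in wt IL-1, 13.89%, 15.72%, 11.18% and 21.17% in ko PBS, and 12.12%, 12.39%, 11.31% and 16.36% in ko IL-1. In the 6 libraries with over 2% of reads from mitochondrially encoded genes the share was 14.47% to 21.17% (median 17.2%), and in the 9 libraries under 2% it was 11.18% to 15.72% (median 12.12%). All 3 wt IL-1 libraries were among the 6. Without ko PBS replicate 4 the ko median was 0.00 and that of the difference -0.36; without wt PBS replicate 4 the difference was -0.94. Without the library labelled wt IL-1 replicate 1, the wt median was 0.48 and that of the difference -0.86. With the mitochondrial share as a covariate the medians were 0.05 in wt, -0.27 in ko and -0.31 for the difference, again with 0 calls.

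**Figure D5:**
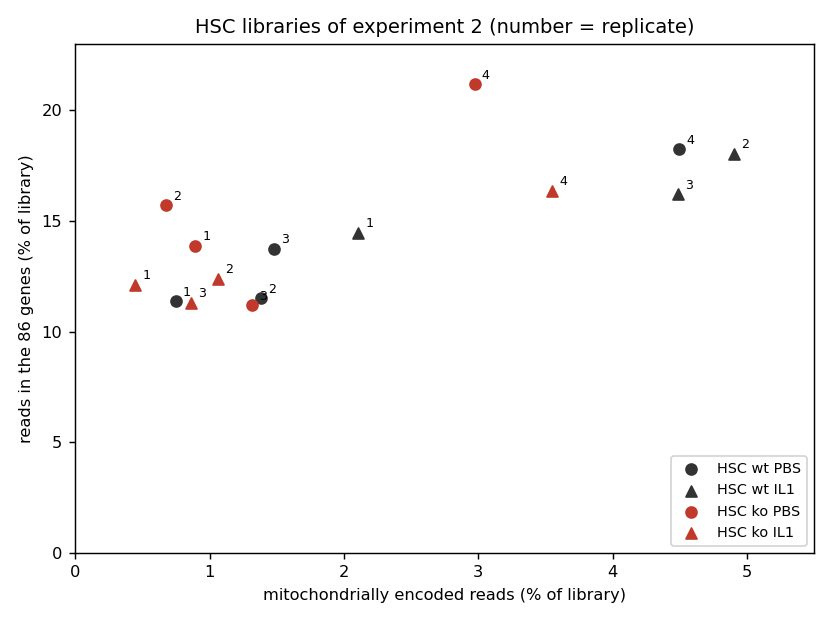
Percent of reads in the 86 genes (vertical axis, from 0) against percent of reads from mitochondrially encoded genes (horizontal axis) in the 15 HSC libraries of experiment 2; wt black, ko red, circles PBS, triangles IL-1, numbers are replicates. The 6 libraries over 2% mitochondrial reads hold 14.47% to 21.17% in the family and the 9 others 11.18% to 15.72%.

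Other gene groups were measured in the same HSC libraries. Short protein-coding genes had medians of 0.18 in wt, -0.23 in ko and -0.40 for the difference, with 689 of 903 negative in the last. Mitochondrial ribosomal protein genes had 0.08, -0.23 and -0.29. Ribosome biogenesis genes did not share the sign in wt, with a median of -0.48 and 33 of 35 negative there, and -0.24 in ko, with 0 called in either. The summed CPM of 5 erythroid markers was 518 to 610 in wt IL-1 HSC and 68.7 to 122 in wt PBS HSC, and 372 to 600 in ko IL-1 HSC and 123 to 350 in ko PBS HSC, so it was higher with IL-1 in both genotypes. The part of the mitochondrial share, of short transcripts and of erythroid RNA in the ribosomal protein values was not tested beyond the covariate above.

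Between genotypes at 1 treatment, the HSC median for ko against wt was 0.25 with PBS (-0.09 without ko PBS replicate 4) and -0.46 with IL-1, where 83 of 84 genes were negative. 0 genes were called in either, at a background of 0.798% and 0%, with 0 and 1 genes at an unadjusted p under 0.05, and 0 by DESeq2 and limma voom. Without the library labelled wt IL-1 replicate 1 the median under IL-1 was -0.57, and with the mitochondrial share as a covariate it was 0.06. With replicate number as a block 8 of 84 genes were called under IL-1, all lower, where 190 of all 16538 genes were called in either direction. The median with the block was -0.71. The block gave 0 calls with PBS.

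The share of reads varied less among the HPC libraries of experiment 2. The family took 13.93%, 11.78% and 11.70% of reads in wt PBS HPC, 12.51%, 13.06% and 13.05% in wt IL-1, 11.86%, 12.77% and 11.50% in ko PBS, and 11.57%, 13.30% and 12.75% in ko IL-1. All 4 groups overlapped. The median IL-1 change was 0.12 in wt and 0.15 in ko, and 0 of 84 genes were called in either by edgeR, DESeq2 or limma voom (6 and 3 at an unadjusted p under 0.05), at a background of 0.947% and 0.433%. Rplp0 was at 4934, 3237 and 4868 CPM in wt PBS HPC and at 5766, 5304 and 6035 in wt IL-1 HPC, without overlap, a difference of 0.39 ± 0.15 (edgeR adjusted p = 0.359). In ko it was at 5050, 5028 and 4810 with PBS and at 5502, 6078 and 6157 with IL-1, again without overlap, a difference of 0.25 ± 0.15 (edgeR adjusted p = 0.912). Rps14 and Rps19 differed by -0.06 to 0.10 in both genotypes, with overlapping libraries.

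Rps27l in HPC was at 225, 193 and 118 CPM in wt PBS, 270, 145 and 148 in wt IL-1, 145, 134 and 117 in ko PBS, and 226, 162 and 146 in ko IL-1. Its ko groups did not overlap, with 0.44 ± 0.28 (edgeR adjusted p = 0.932), and its wt groups did. For ko against wt in HPC, 0 genes were called with PBS (background 0.257%, median -0.13, 10 at an unadjusted p under 0.05) or with IL-1 (background 0.201%, median -0.07, 1 at an unadjusted p under 0.05). The difference of the IL-1 responses between genotypes in HPC had a median of 0.05 (-0.11 without HPC wt PBS replicate 1). The wt response in HPC minus that in HSC had -0.22, or -0.33 without the library labelled wt IL-1 replicate 1, and lay between -0.46 without HSC wt PBS replicate 4 and -0.06 without HPC wt PBS replicate 1, with 0 of these genes called in both at a background of 0% and 0.0228%. DESeq2 and limma voom gave 0 in these 4 comparisons as well.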

How the data were processed

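Whole-number counts per gene, as deposited by the authors in 1 table per experiment, were used; the submitters' processing notes name STAR 3.0.4, featureCounts 1.4.5 and Subread, and the labels' protocols describe a total RNA kit and a SMARTer library kit. The sources used here name no genome build, strandedness or rule for reads with several matches; without strand, 39 genes that share exonic bases with other genes cannot be separated from them, and 75 may share reads with near-identical copies (blastn 2.17.0+, GENCODE M21 transcripts on GRCm38, which also gave symbols and gene coordinates). All columns were mapped to samples by title (0 unassigned), and 3 entries that are not mouse genes were left out.

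The members and gene lists were chosen with earlier results of these data known. Genes were tested with edgeR 4.0.16 (R 4.3.3; robust quasi-likelihood fits, TMM scaling, filterByExpr with a minimum count of 10 and total of 15), Benjamini-Hochberg adjusted over all genes tested, called under 0.05: 8 fits, 1 per population and experiment for genotype and IL-1, and 1 per experiment across populations, gave 33 comparisons. Scripts were tested on simulated data. CPM in tests are TMM-scaled within a fit, so a library's CPM differs slightly between fits; levels across experiments use library totals. Library totals of 13273928 to 42826325 reads set the precision; intervals and floors cover counting error only, since reads have no molecular identifiers.

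The text names up to 5 called members per direction and comparison by size, a preset panel of paralogs, anaemia genes and stalk genes, and the 3 highest and lowest per kilobase in wt HSC; Rpl4, Rpl41, Rpl15, Rps21, Rps29 and Rps13 were named after their values were seen. Some genes are not reported here by name. Alternatives were RLE scaling, TMM without the members, no filter, DESeq2 1.42.0, limma voom 3.58.1 with sample weights, other sets of libraries, a Y-linked covariate, a replicate block and leaving out each library. Same-numbered libraries deviated together (every pair's correlation at 0.10 or more) in wt HPC against HSC of experiment 1 (0.10 to 0.28) and, for HPC of experiment 2, in IL-1 against PBS of wt and of ko and in ko against wt with IL-1; the replicate block changed no count by over 1.5 times in these 4 comparisons. In the other comparisons same-numbered libraries did not all deviate together, and the labels do not say whether their numbers pair them.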

Additional observations from a re-analysis of the deposited data

Results flagged for a closer look

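In GMP of experiment 1, ko replicate 2 had 7.12% of its reads in the ribosomal protein genes, where the nearest ko library had 4.61%; the gap is 0.958 of the group's range, beyond Dixon's 95% limit for 4 samples. In pGM of experiment 1, ko replicate 4 had 6.44%, where the nearest ko library had 5.28%, a gap of 0.846 of the range. Chance marks about 1 in 20 groups, and 15 groups were tested.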

How the results depend on the processing

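No count of called genes changed direction, and none of the 519 refitted values of single genes did. Values of named genes that were not refitted were not checked for this. Medians of the family near 0 changed direction with single libraries, as given beside them. The median also changed sign, with 0 calls, from -0.46 to 0.06 for ko against wt in HSC with IL-1 under the mitochondrial covariate and from 0.13 to -0.13 for ko against wt in GMP with GMP het replicate 1 and GMP ko replicate 2 both left out. Of 519 refitted values of single genes 463 stayed on their side of the threshold and 56 no longer passed it. Of 561 refitted counts 514 stayed within 1.5 times the reported one. Most comparisons had a reported count of 0, and a refit that also gave 0 is included in the 514. For wt HPC against HSC of experiment 1, 7 of the 8 refits that left out 1 library did not stay within it.

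In wt cells of experiment 1, genes called in HPC against HSC were 9 with RLE scaling, 14 with no filter, 11 with DESeq2 and 47 with limma voom (3 to 38 leaving out 1 library). In pGM against HPC they were 4 with limma voom and 4 with only the 2 groups fitted (1 to 2). In GMP against pGM they were 16 with limma voom and 16 with only the 2 groups fitted (5 to 8). In pGM against HSC they were 19 with RLE scaling and 19 with DESeq2 (18 to 34). In pGM ko against wt 1 gene was called with DESeq2 and 1 with all libraries in 1 fit (0 to 1). For the ko against wt change in pGM minus that in HSC the count of 1 went to 0 with no filter and with limma voom (0 to 1). In HPC given PBS, ko against wt had 1 call, lower, with no filter. The cause of these changes was not tested.

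The labels do not say whether libraries of the same number belong together, and in the comparisons named next same-numbered libraries did not all deviate together. With the replicate block the count was 5 (higher) for IL-1 in wt HSC and 8 (lower) for ko against wt in HSC with IL-1. It was 6 (higher, median 0.14 in place of -0.10) for HPC against HSC in wt PBS cells and 0 for the ko against wt change in pGM minus that in HSC. With a replicate block of genotype and number, chosen after seeing the data, the last 2 were 4 and 0. The block changed no other count by over 1.5 times. The mitochondrial covariate and the joint removal of GMP het replicate 1 and GMP ko replicate 2 were also chosen after seeing the data and gave 0 calls.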
